A study of Homo sapiens with 24 samples.

Results

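The genes of cholesterol and fatty acid synthesis were followed through a time course of TGFβ treatment in SK-MES1, a human squamous lung carcinoma cell line. They were 31 genes, chosen by name from the textbook pathways, out of 34834 genes with a transcript in the files. All 31 passed the count filter and were among the 17453 genes tested. Their roles gave 4 groups, namely 9 genes of the mevalonate and squalene steps, 9 genes that modify the sterol ring, 4 genes of regulation and sterol transport, and 9 genes of fatty acid and glycerolipid synthesis. Serum was withdrawn from all cells for 3 h, after which one arm received 2 ng/ml TGFβ1 and the other was left untreated. By the authors' methods TGFβ1 stimulation was done in medium depleted of growth factors. They give no return of serum in either arm for the RNA sequencing. Total RNA of each arm was taken at 0, 8, 24 and 48 h, giving 3 libraries in each of the 8 groups, described as biological triplicates of this 1 line. The 2 arms at 0 h served as the control comparison.

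Depth ran from 46613589 to 77964234 estimated counts per library. Of the squamous markers only TP63 was present (7.69 to 37.5 TPM), and KRT5, KRT14, KRT6A and DSG3 stayed below 1 TPM in all 24 libraries, whereas of the epithelial markers KRT8 and KRT18 stood at 374.6 to 963.4 and 406.3 to 988.8 TPM, EPCAM at 21.6 to 37.0 TPM and CDH1 at 0.969 to 5.74 TPM. Summed, these 4 epithelial markers stood at 845.8 to 927.0 TPM at 0 h in both arms and, at 48 h, at 1927.6 to 1982.1 TPM without and 1661.9 to 1719.4 TPM with TGFβ. The 4 fibroblast markers, summed, stood at 167.0 to 302.8 TPM in the untreated libraries and, with TGFβ, at 184.8 to 270.4, 779.8 to 852.4, 1239.7 to 1744.9 and 2092.2 to 2390.6 TPM at 0, 8, 24 and 48 h, the 48 h level being mostly COL1A1 (up to 2359 TPM), while COL1A2 stayed below 1 TPM in all libraries. The part of these shifts in the lipid gene differences was not tested. The replicate 2 libraries of 0 and 24 h stood apart from the other replicates in both arms, with a chi-square per gene of up to 60.5 where counting noise alone would give about 1, and the counts between the arms are therefore also given without these 4 libraries. File names carried 4 codes of unstated meaning that divided each arm into 0 and 8 h on one side and 24 and 48 h on the other. Since the arms carried different codes at every time, arm and code cannot be told apart. The pair of codes of 8 h was also that of 0 h, when 0 genes were called between the arms, whereas the codes of 24 and 48 h held no library of 0 h. The steps from 0 to 8 h and from 24 to 48 h stayed within 1 code in each arm, whereas for the step from 8 to 24 h time and code cannot be told apart.

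Cells make cholesterol from acetyl-CoA through mevalonate, squalene and lanosterol, and fatty acids from the same acetyl-CoA through malonyl-CoA. Both pathways are driven by the SREBP transcription factors, which are held in the endoplasmic reticulum by INSIG proteins while sterols are plentiful, and which travel to the Golgi, are cleaved and enter the nucleus when sterols run low. There they bind sterol regulatory elements next to sites for the general factors NF-Y and Sp1, and the genes of both pathways therefore tend to move together.

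Promoter letters are shown here because the genes moved together in time. RefSeq windows (GRCh38.p14) of 250 bases before to 50 bases after a transcript start were matched by symbol for 27 of the 31 genes, with 39 windows in all, and ACAT2, FASN, FDFT1 and SQLE were not matched. Capitals mark TCACNCCAC (sterol regulatory element), CCAAT (NF-Y) and CACGTG (E-box), searched on both strands, so that a CCAAT on the opposite strand reads ATTGG. The Sp1 box, GGGCGG, was searched as well and is left in lower case. INSIG1 and SREBF2 are shown as regulators, SREBF2 also being the one gene with a sterol element match. SCD and MSMO1 are shown as genes that rose steeply and ELOVL6 as a gene that fell with TGFβ, and these last were picked after their values had been seen. Bases that belong to an annotated exon of a coding gene were cut away. On GRCh38 the whole genes lie, in GENCODE 44, with INSIG1 at chr7:155297776-155310235, SREBF2 at chr22:41833105-41907306, SCD at chr10:100347233-100364826, MSMO1 at chr4:165327667-165343164 and ELOVL6 at chr4:110045846-110199199. The printed ELOVL6 stretch lies inside that span, because its RefSeq start is downstream of the outermost GENCODE start. Bases before the outermost start of ELOVL6 are not shown.
INSIG1, chr7:155297628-155297775, plus strand: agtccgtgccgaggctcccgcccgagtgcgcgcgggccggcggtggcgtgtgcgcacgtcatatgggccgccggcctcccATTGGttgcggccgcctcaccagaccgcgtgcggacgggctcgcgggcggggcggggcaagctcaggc
SREBF2, chr22:41832855-41833104, plus strand: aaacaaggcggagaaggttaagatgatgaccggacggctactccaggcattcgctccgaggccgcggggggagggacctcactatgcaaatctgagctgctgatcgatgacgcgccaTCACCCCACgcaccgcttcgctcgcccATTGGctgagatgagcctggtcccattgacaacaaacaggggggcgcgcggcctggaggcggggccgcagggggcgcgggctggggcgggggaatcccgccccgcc
SCD, chr10:100346983-100347232, plus strand: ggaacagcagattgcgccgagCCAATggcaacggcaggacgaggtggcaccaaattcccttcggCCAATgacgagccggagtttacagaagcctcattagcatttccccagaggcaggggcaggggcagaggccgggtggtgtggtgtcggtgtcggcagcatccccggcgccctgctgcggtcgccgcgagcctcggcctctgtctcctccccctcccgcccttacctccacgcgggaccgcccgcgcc
MSMO1, chr4:165327419-165327666, plus strand: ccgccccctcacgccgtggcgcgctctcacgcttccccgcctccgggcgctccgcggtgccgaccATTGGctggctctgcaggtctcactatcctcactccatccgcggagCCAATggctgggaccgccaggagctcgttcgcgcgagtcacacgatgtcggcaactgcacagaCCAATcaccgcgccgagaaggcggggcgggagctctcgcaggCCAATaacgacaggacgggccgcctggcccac
ELOVL6, chr4:110198654-110198841, minus strand: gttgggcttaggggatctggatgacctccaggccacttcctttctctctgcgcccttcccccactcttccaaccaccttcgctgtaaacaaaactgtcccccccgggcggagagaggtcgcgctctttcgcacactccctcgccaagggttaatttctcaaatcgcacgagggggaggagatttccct

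GGGCGG and CCAAT were the most frequent of the searched motifs in these windows. CCAAT was found in 25 of the 39 windows of the listed genes (64.1%) against 34.6% of all 35116 RefSeq windows of this length. Counted by gene, 21 of 27 listed genes (77.8%) had it in at least 1 window, against 42.8% of the 12490 tested genes with a window. CYP51A1, ELOVL6, FADS1, LPIN1, PMVK and SREBF1 had none. GGGCGG was present in 34 of 39 windows (87.2%) against 45.0% of all windows, and 26 of 27 genes had it against 73.5% of tested genes, NSDHL being the one without. The E-box of INSIG1 lies at bases -55 to -50, outside the stretch printed above. CACGTG was held by 4 of 39 windows (10.3%) against 7.3% of all windows. Counted by gene, it was held by 3 of 27 (11.1%) against 12.0% of tested genes. The strict 9-letter sterol element TCACNCCAC matched in SREBF2 alone, at bases -133 to -125 from the start, which is 1 of 39 windows (2.6%) against 1.1% of all windows. A match is a description of letters and a missing match says only that these letters are not in the window.

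**Figure D1:**
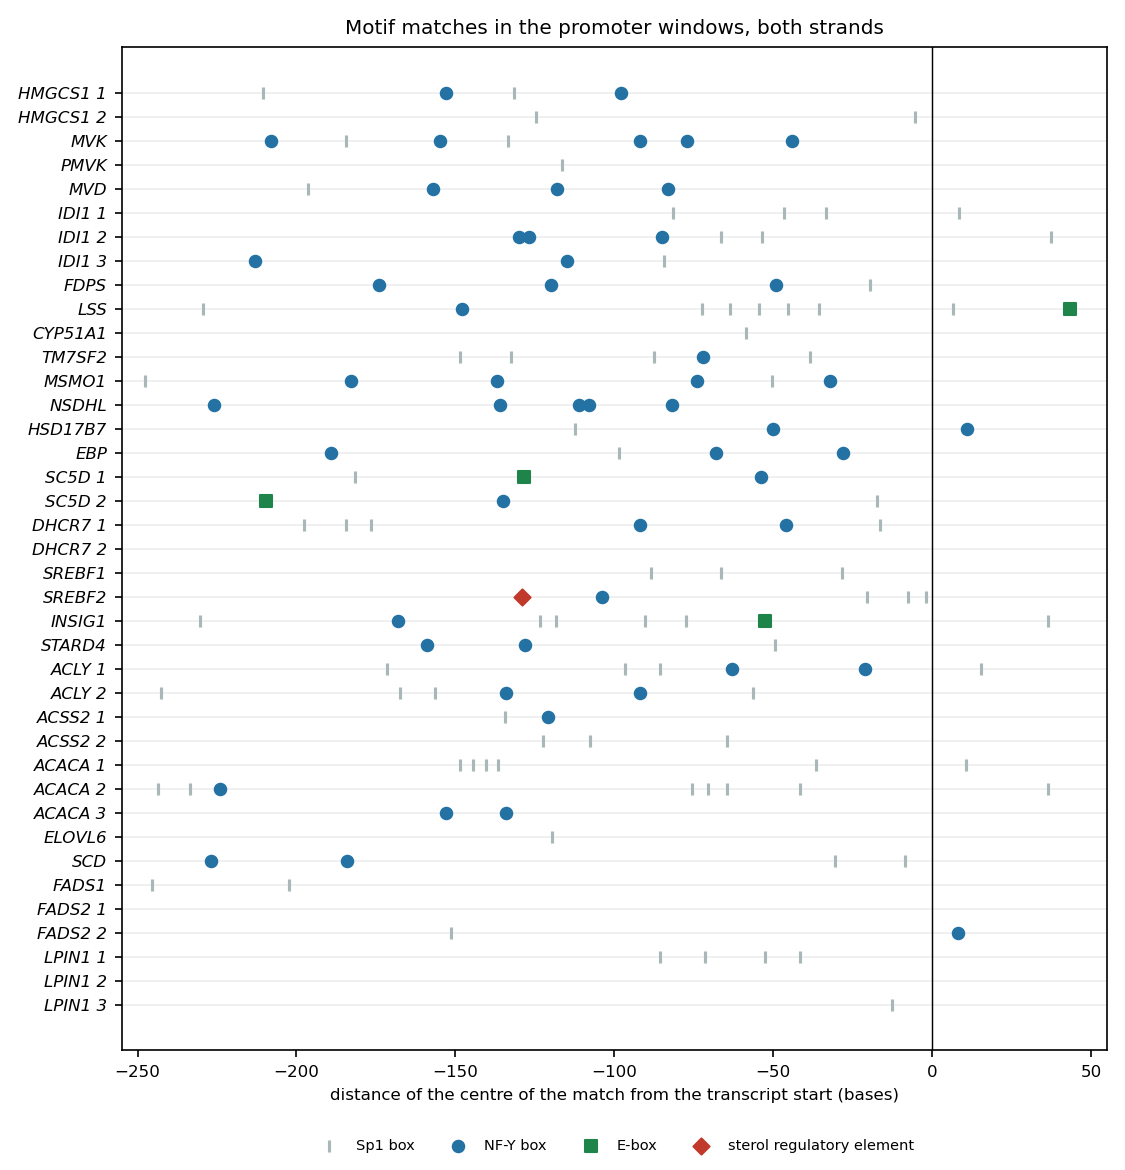
Positions of the 4 searched motifs in the RefSeq promoter windows of the 27 matched genes, with distance from the transcript start in bases on the horizontal axis and 1 line per window (a number after the gene marks its windows where it has several). Blue NF-Y boxes are scattered over most lines, 21 of 27 genes having at least 1, whereas the red sterol element appears only in SREBF2.

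Most of the listed genes rose over the first 24 h and fell by 48 h, and their summed level at 24 h was lower with TGFβ. Summed over the 31 genes, untreated cells went through 2060.3 ± 36.4, 3478 ± 31.8, 6824 ± 131 and 4312 ± 139.9 TPM at 0, 8, 24 and 48 h (mean ± SD, n = 3). With TGFβ the sums were 1984 ± 36.1, 3130.4 ± 66.7, 5019 ± 99.8 and 4186 ± 48.4 TPM. All 3 TGFβ sums lay below all 3 untreated sums at 0 h already (1943 to 2012 against 2025 to 2098 TPM), as they did at 8 and 24 h, and the ranges overlapped at 48 h. The means were furthest apart at 24 h. The sums of all 4 role groups were highest at 24 h in both arms. TPM is a level corrected for transcript length, so it can be compared between genes. All log2 differences below come from the counts and compare libraries within 1 gene.

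**Figure D2:**
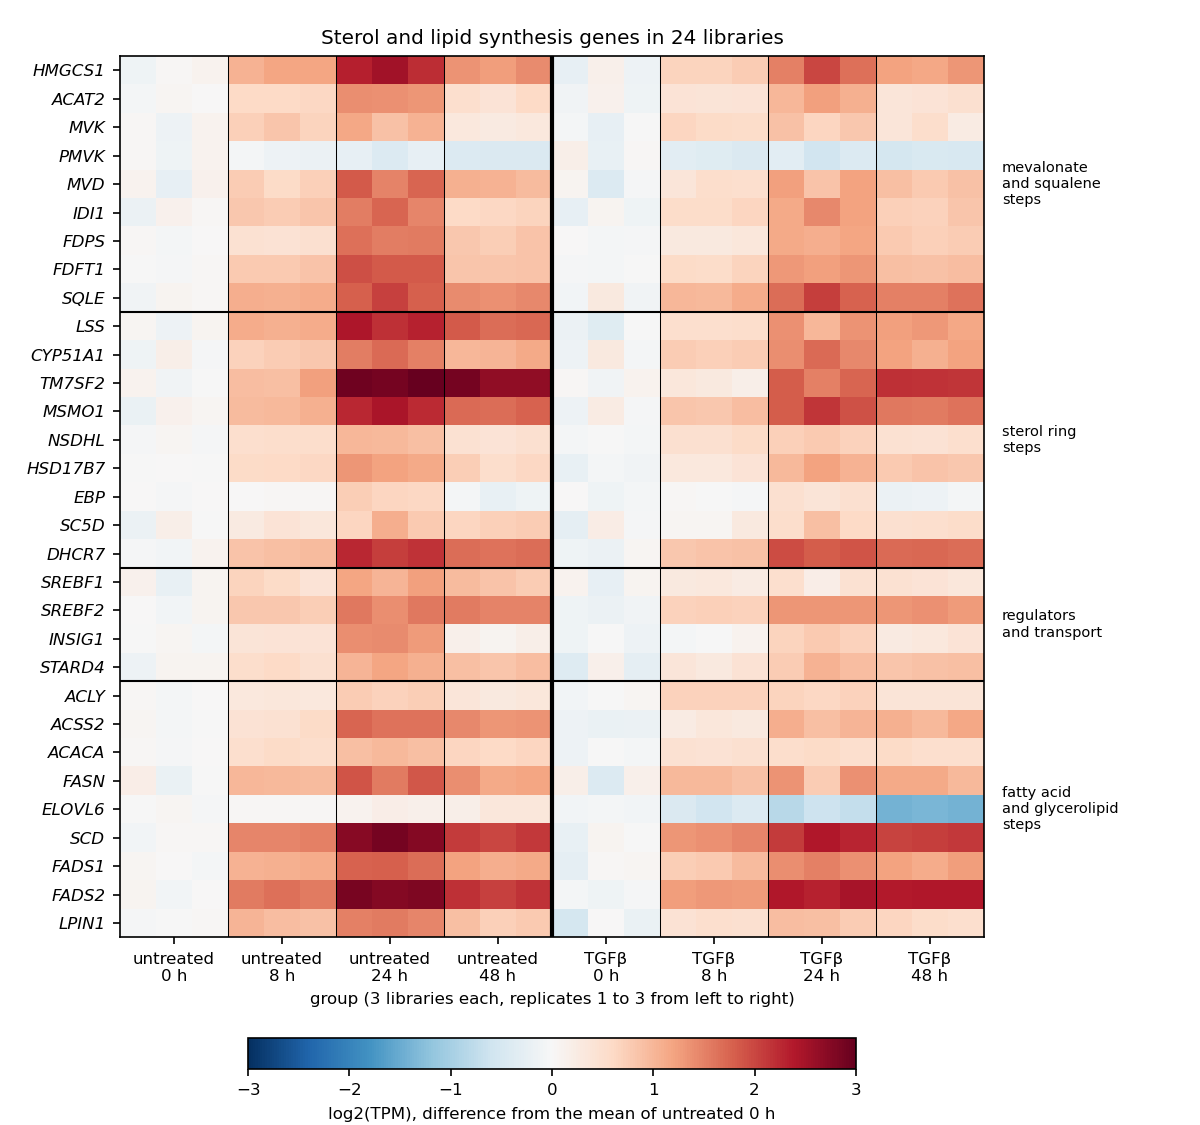
Levels of the 31 genes in the 24 libraries, drawn as the difference of log2(TPM) from the mean of the untreated 0 h libraries, with genes in rows by role and libraries in columns by arm and time. Red deepens to 24 h in both arms and more so in untreated cells, while PMVK turns pale blue in both arms and ELOVL6 turns blue in the TGFβ arm.

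In untreated cells the first step affected nearly the whole set. From 0 to 8 h, 27 of 31 genes rose and 0 fell, against 13.2% of all tested genes that rose and 12.7% that fell, 25.9% together (limma voom, Benjamini-Hochberg adjusted p below 0.01), and the median log2 change of the 31 genes was 0.67 where that of all genes was 0.00. The 4 genes that did not pass were PMVK (-0.17), EBP (-0.04), SC5D (0.32) and ELOVL6 (0.00). From 8 to 24 h 29 genes rose and 0 fell, against 16.2% and 16.8% of all genes (33% together), with a median of 0.80, and PMVK and ELOVL6 were the ones without a call. From 24 to 48 h 24 genes fell and 1 rose, against 13.6% and 14.7% of all genes (28.4% together), with a median of -0.62. The gene that rose was ELOVL6, by 0.42, a call lost with counts corrected for transcript length (0.08, adjusted p = 0.28, limma voom) and on log2 TPM (0.13, adjusted p = 0.069 and 0.074, limma-trend). Those without a call were PMVK, TM7SF2, SC5D, SREBF1, SREBF2 and FASN.

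In the TGFβ arm most of the genes also rose to 24 h and fell afterwards. From 0 to 8 h 24 genes rose and 2 fell (PMVK and ELOVL6), against 17.5% and 16.3% of all genes (33.8% together), with a median log2 change of 0.61. From 8 to 24 h 25 rose and 0 fell, against 14.6% and 13.9% of all genes (28.4% together), with a median of 0.68. From 24 to 48 h 0 rose and 18 fell, against 12.4% and 13.4% of all genes (25.8% together), with a median of -0.32. Step differences between the arms were tested as such. The change from 0 to 8 h differed for 3 genes (7.88% of all genes, 5.05% higher and 2.84% lower with TGFβ), higher with TGFβ for ACLY and lower for ELOVL6 and FADS1. The call of FADS1 was lost with length-scaled counts or log2 TPM (adjusted p = 0.25 to 0.29) and on leaving out any of 18 single libraries. The change from 8 to 24 h was lower with TGFβ for 7 genes and higher for 0 (6.69% of all genes, 2.54% lower and 4.14% higher), namely FDPS, FDFT1, LSS, NSDHL, ACLY, ACSS2 and SCD, of which LSS was lost without any of 16 single libraries. The change from 24 to 48 h was higher with TGFβ for 12 genes and lower for ELOVL6 (9.11% of all genes, 3.5% higher and 5.61% lower). Without the library of untreated 24 h replicate 1 or that of untreated 48 h replicate 2 this last count was 7 in place of 13.

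**Figure D3:**
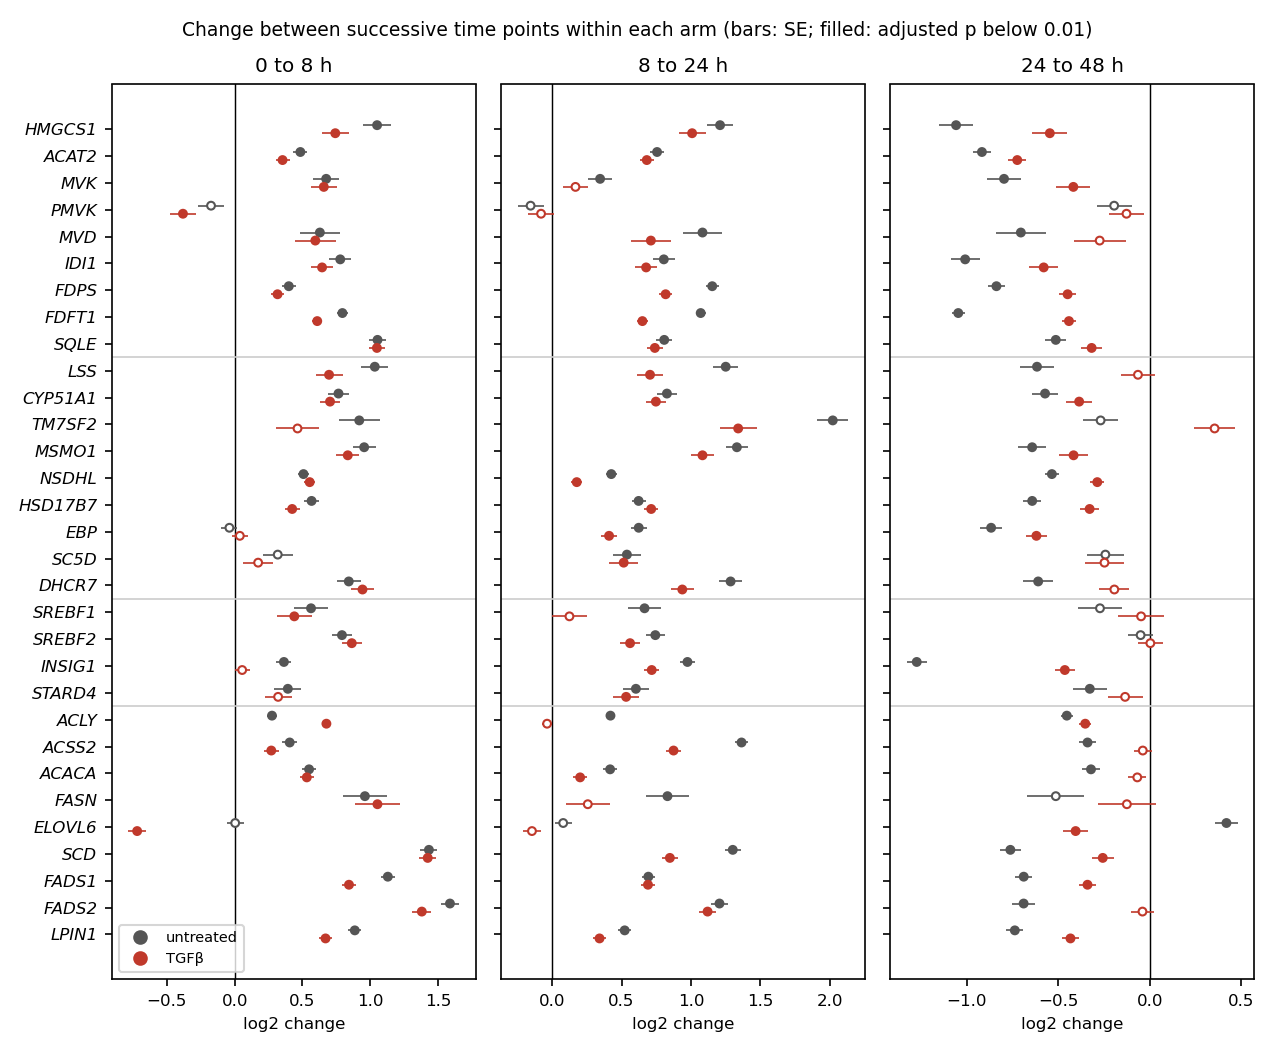
Log2 change of each gene over the 3 successive time steps, in untreated (grey) and TGFβ-treated cells (red), with bars for the SE and filled points where the adjusted p was below 0.01. Grey points lie further right than red ones at 8 to 24 h and further left at 24 to 48 h for most genes, while ELOVL6 lies right of 0 in grey and left of 0 in red at 24 to 48 h.

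The comparison between the arms asked which of these genes TGFβ changed at each time. At 0 h 0 of 31 genes differed (0% of all genes), and the number at an unadjusted p below 0.05 was also 0, against 4.58% of all tested genes. Of the 31, edgeR and DESeq2 called 0 as well, against 0 and 0.0458% of all genes. At 8 h 9 genes were lower and 1 was higher, ACLY, against 7.26% and 9.12% of all genes (16.4% together). At 24 h 21 genes were lower and 0 higher, against 13.8% and 15.4% of all genes (29.3% together). At 48 h 5 were lower and 3 higher, against 16.4% and 16.1% of all genes (32.6% together), and this split was 7 and 1 with library totals and 6 and 2 on log2 TPM. Over 8, 24 and 48 h together, an F-test called 20 genes, 19 with a lower and 1 with a higher average, against 21.5% and 21% of all genes (42.5% together). Median log2 differences of the 31 genes at 0, 8, 24 and 48 h were -0.03, -0.14, -0.33 and -0.02, while the median of all tested genes was -0.02 at 8 and 24 h and -0.01 at 48 h. The share of listed genes called was thus above that of all genes at 24 h and below it at 48 h.

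Library ranges gave a similar picture at 24 h, and at 8 and 48 h they set more genes apart than were called, which also held over all genes. At 24 h all 3 TGFβ libraries lay below all 3 untreated libraries in TPM for 23 of 31 genes, against 23.2% of all genes, and above them for 0, against 17.2%. At 8 h 22 genes lay below (31.2% of all genes) and 1 above (16.2%). Over all genes the calls at 8 h leaned the other way, with 7.26% lower and 9.12% higher. Small margins in TPM at 8 h, here and for single genes below, are to be read with this limit. At 48 h 12 lay below (30.7%) and 7 above (24.4%). At 0 h 4 lay below (5.3%) and 0 above (1.69%), the 4 being SREBF2, ACSS2, ELOVL6 and HSD17B7. Without the 4 libraries of replicate 2 at 0 and 24 h, 16, 25 and 13 genes were called at 8, 24 and 48 h, which is 51.6, 80.6 and 41.9% of the 31 against 27.5, 34.3 and 44.8% of all genes in that fit. The genes gained were HMGCS1, ACAT2, PMVK, IDI1, SREBF1 and ACSS2 at 8 h, MVK, HSD17B7, SREBF2 and STARD4 at 24 h, and SQLE, CYP51A1, DHCR7, SREBF2 and LPIN1 at 48 h. The 8 h count was 6 in place of 10 without untreated 8 h replicate 3, TGFβ 8 h replicate 1 or TGFβ 8 h replicate 2. The 24 h differences of SQLE and CYP51A1, which did not pass, changed sign without TGFβ 24 h replicate 1, and that of CYP51A1 also without untreated 24 h replicate 2. A bulk library cannot tell fewer cells that express a gene from less of its RNA in each cell.

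**Figure D4:**
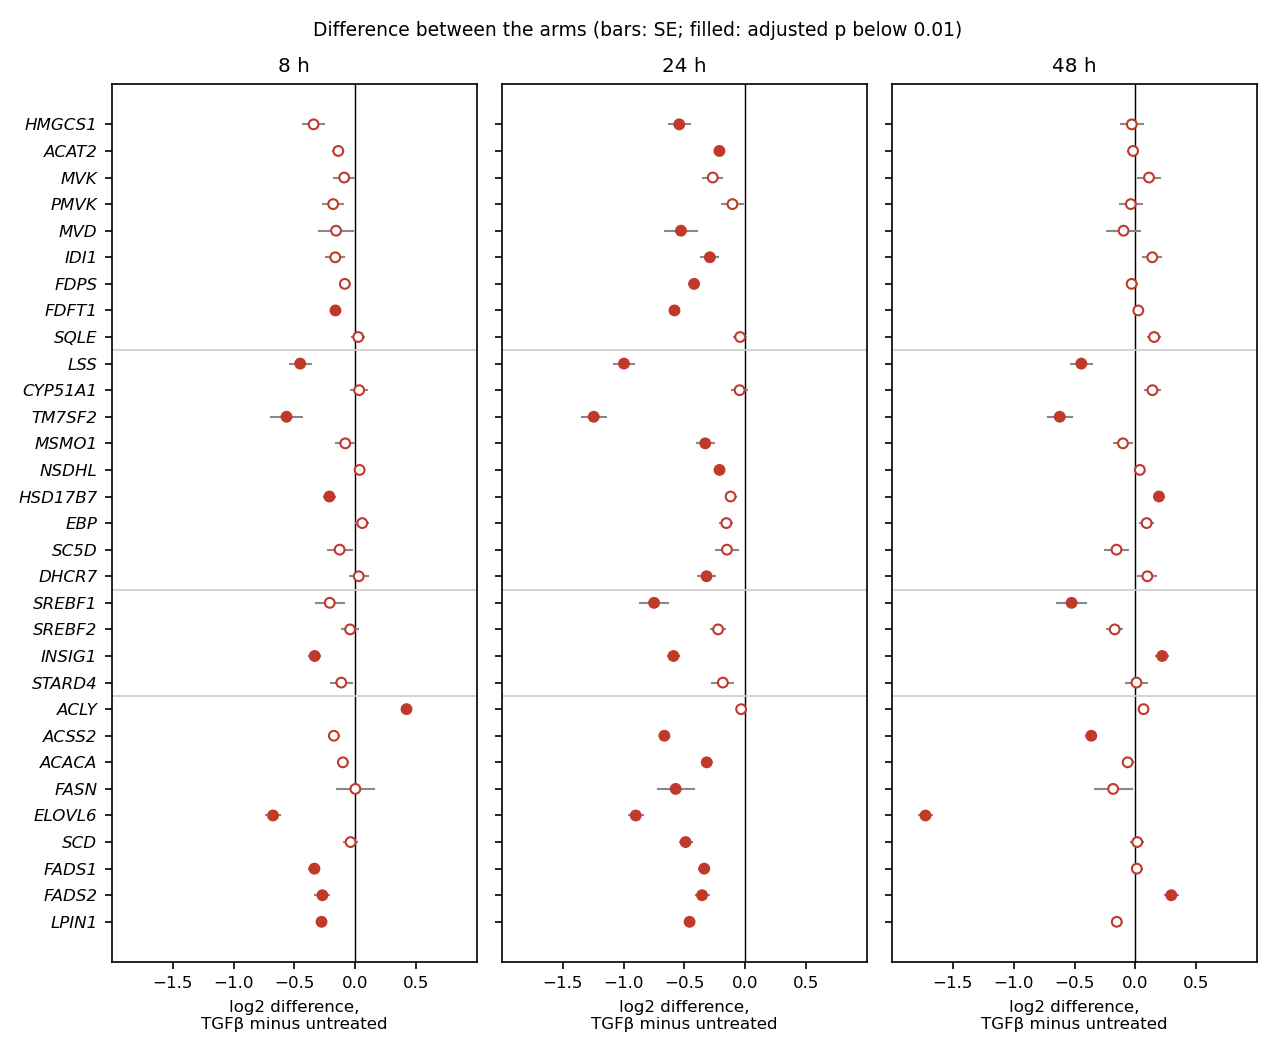
Log2 difference between TGFβ-treated and untreated cells for each gene at 8, 24 and 48 h, with bars for the SE and filled points where the adjusted p was below 0.01. At 24 h all 31 points lie left of 0 and 21 are filled, while at 48 h they gather around 0 except for LSS, TM7SF2, SREBF1, ACSS2 and ELOVL6 on the left and HSD17B7, INSIG1 and FADS2 on the right.

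Among the mevalonate and squalene genes, 8 of 9 rose at each of the first steps without TGFβ and 6 of 9 were lower with TGFβ at 24 h, with a median log2 difference of -0.29. At 8 h FDFT1 alone of the 9 passed and at 48 h 0 did. Of all genes 13.2 and 16.2% rose at those steps and 13.8% were lower at 24 h, while 16.4 and 32.6% passed at 8 and 48 h. HMGCS1 makes HMG-CoA, the substrate of the rate-limiting step of the pathway. In untreated cells HMGCS1 stood at 64.1, 72.4 and 75.2 TPM at 0 h, 146, 159 and 160.0 at 8 h, 352, 404 and 326 at 24 h, and 179, 167 and 189 at 48 h. With TGFβ, HMGCS1 stood at 59.1, 78.1 and 62.9 TPM at 0 h, 112, 112 and 119 at 8 h, 200.3, 281 and 222 at 24 h, and 162, 158 and 177 at 48 h. The arms did not overlap at 8 and 24 h and overlapped at 0 and 48 h. Its level rose 5.11-fold to 24 h without and 3.52-fold with TGFβ, and the difference at 24 h was -0.54 ± 0.09 on the log2 scale (SE, adjusted p = 7.4e-05, limma voom). At 8 h it was -0.34 ± 0.10 and missed the threshold with an adjusted p of 0.013.

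FDFT1, squalene synthase, commits the pathway to sterols. In untreated cells FDFT1 stood at 123, 119 and 126 TPM at 0 h, 211, 212 and 221 at 8 h, 470.5, 439 and 442 at 24 h, and 219, 219 and 223 at 48 h. With TGFβ, FDFT1 stood at 119, 119 and 122 TPM at 0 h, 182, 180.1 and 194 at 8 h, 302, 289.5 and 308 at 24 h, and 229, 226 and 235 at 48 h. Replicates were tight, and the arms were apart at 8 and 24 h with the treated libraries lower and at 48 h with them slightly higher. FDFT1 differed by -0.58 ± 0.04 on the log2 scale at 24 h (adjusted p = 2.2e-11, limma voom) and 0.02 ± 0.04 at 48 h (adjusted p = 0.65). Its call at 8 h (-0.16, adjusted p = 0.0025) was lost with length-scaled counts (0.013). It was also lost without untreated 8 h replicate 3 or TGFβ 8 h replicate 1 or 2, with an adjusted p of 0.015 to 0.022 (limma voom). FDPS, farnesyl diphosphate synthase, supplies its substrate. In untreated cells FDPS stood at 229, 213 and 226 TPM at 0 h, 304, 301 and 309.5 at 8 h, 700.0, 650.4 and 661 at 24 h, and 393, 371 and 402 at 48 h. With TGFβ, FDPS stood at 223, 214 and 216 TPM at 0 h, 273, 273 and 282 at 8 h, 486, 477 and 508 at 24 h, and 381, 368 and 378 at 48 h. Like FDFT1, FDPS had no overlap between the arms at 8 and 24 h, but unlike FDFT1 it overlapped at 48 h. At 24 h its log2 difference was -0.42 ± 0.05 with an adjusted p of 2.7e-07. FDPS has processed pseudogene copies among which transcript assignment may divide reads.

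IDI1 isomerizes isopentenyl diphosphate. In untreated cells IDI1 stood at 49.2, 60.6 and 56.8 TPM at 0 h, 96.3, 93.9 and 98.3 at 8 h, 160.1, 185 and 152 at 24 h, and 83.6, 85.4 and 88.3 at 48 h. With TGFβ, IDI1 stood at 46.4, 59.0 and 50.7 TPM at 0 h, 80.5, 81.6 and 86.0 at 8 h, 121, 149.8 and 127 at 24 h, and 90.6, 89.4 and 98.7 at 48 h. The treated libraries lay below at 8 and 24 h and above at 48 h, by small margins. Its log2 difference at 24 h was -0.29 ± 0.08 (adjusted p = 0.0049, limma voom), and this call was lost when any of 4 single libraries of 24 h was left out, with an adjusted p of 0.011 to 0.038. ACAT2, the cytosolic thiolase that makes acetoacetyl-CoA, moved less. In untreated cells ACAT2 stood at 67.7, 73.2 and 70.9 TPM at 0 h, 107, 107 and 108 at 8 h, 185, 181 and 175 at 24 h, and 99.7, 93.6 and 106 at 48 h. With TGFβ, ACAT2 stood at 65.1, 77.1 and 64.9 TPM at 0 h, 93.7, 91.8 and 93.9 at 8 h, 141, 167 and 148 at 24 h, and 90.2, 93.5 and 98.8 at 48 h. The arms were apart at 8 and 24 h only. At 24 h the log2 difference was -0.21 ± 0.05 (adjusted p = 0.0013, limma voom), which became 0.011 without TGFβ 24 h replicate 1.

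SQLE, squalene epoxidase, a rate-controlling enzyme, rose in both arms, with no call between them at any time unless the replicate 2 libraries of 0 and 24 h were left out. In untreated cells SQLE stood at 48.6, 55.4 and 54.1 TPM at 0 h, 112, 110.2 and 114 at 8 h, 184, 216 and 182 at 24 h, and 139.8, 137 and 144 at 48 h. With TGFβ, SQLE stood at 49.4, 64.5 and 49.0 TPM at 0 h, 106, 104 and 114 at 8 h, 169, 221 and 179.6 at 24 h, and 150.3, 149.8 and 164 at 48 h. The arms overlapped at 0, 8 and 24 h, and at 48 h the treated libraries were above the untreated ones. Its log2 difference was -0.04 ± 0.06 at 24 h and 0.15 ± 0.06 at 48 h, with adjusted p of 0.6 and 0.038 (limma voom), the latter becoming 0.0022 without those 4 libraries. The remaining kinases and the decarboxylase of the mevalonate steps are given by their group means. MVK, mevalonate kinase, ranged over 15.7 to 32.0 TPM without and 14.6 to 26.8 TPM with TGFβ, with its log2 difference of -0.27 at 24 h short of the threshold (adjusted p = 0.02, limma voom). MVD, the decarboxylase, ranged over 36.6 to 118 and 33.7 to 78.4 TPM and was lower at 24 h by a log2 difference of -0.53 ± 0.14, a call lost without untreated 24 h replicate 1 or 3 or TGFβ 24 h replicate 2. PMVK, phosphomevalonate kinase, had no call upward in either arm, with means of 42.6 to 57.6 and 40.9 to 57.7 TPM, and with TGFβ it fell from 0 to 8 h by a log2 change of -0.38 ± 0.09 (adjusted p = 0.0022, limma voom).

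**Figure D5:**
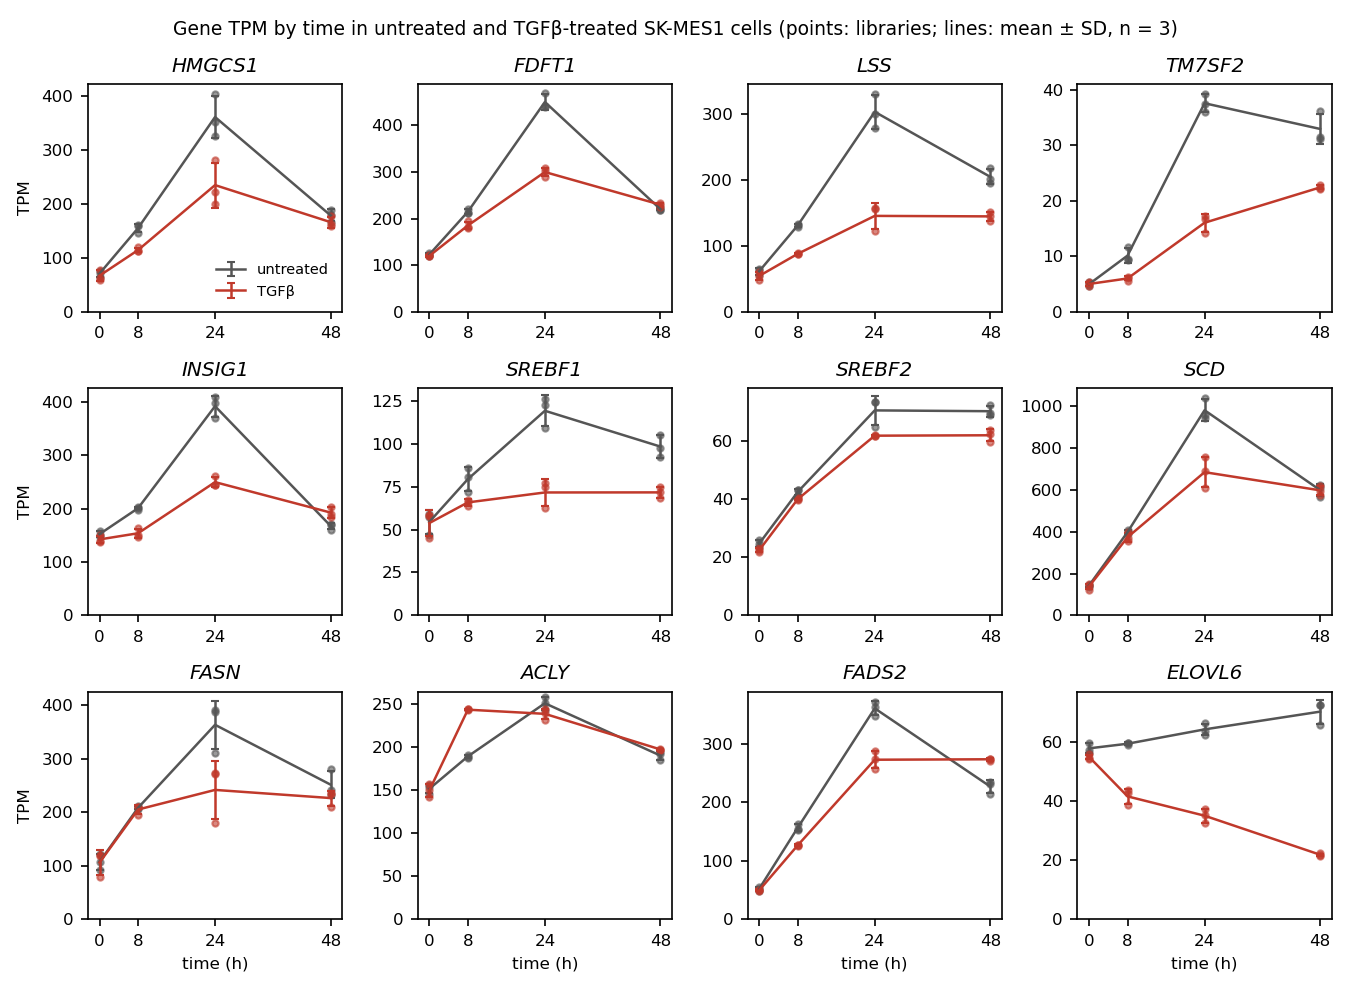
TPM of 12 of the genes against time in hours, in untreated (grey) and TGFβ-treated cells (red), with points for libraries and lines for the mean ± SD of 3 libraries. Most grey lines peak at 24 h above the red ones, ACLY is higher in red at 8 h, and the red line of ELOVL6 falls to a mean of 21.8 TPM at 48 h while the grey one reaches 70.2 TPM.

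The sterol ring group held the 2 largest differences between the arms at 24 h, those of TM7SF2 and LSS. Of its 9 genes, 3, 5 and 2 were lower with TGFβ at 8, 24 and 48 h and 1 was higher at 48 h, and the median log2 difference at 24 h was -0.21. Of all genes 7.26, 13.8 and 16.4% were lower at these times and 16.1% were higher at 48 h. The called share of the group at 48 h (33.3%) was thus near that of all genes (32.6%). LSS, lanosterol synthase, closes the first sterol ring system. In untreated cells LSS stood at 64.0, 55.6 and 64.8 TPM at 0 h, 132, 128 and 133 at 8 h, 331, 279 and 301 at 24 h, and 218, 196 and 201 at 48 h. With TGFβ, LSS stood at 54.7, 47.5 and 60.8 TPM at 0 h, 87.5, 87.5 and 88.9 at 8 h, 158, 123 and 156 at 24 h, and 145, 152 and 138 at 48 h. All treated libraries lay below all untreated ones from 8 h on, and the arms overlapped at 0 h. Its level was 0.479 times the untreated one at 24 h, and the log2 differences at 8, 24 and 48 h were -0.45 ± 0.10, -0.997 ± 0.09 and -0.44 ± 0.09 (adjusted p = 0.0012, 1.5e-08 and 0.00056, limma voom). From 24 to 48 h LSS fell in untreated cells by 0.62 on the log2 scale, while its change with TGFβ was -0.06.

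TM7SF2, a sterol reductase of the steps after lanosterol, was the least abundant listed gene at 0 h. In untreated cells TM7SF2 stood at 5.30, 4.63 and 4.95 TPM at 0 h, 9.42, 9.27 and 11.6 at 8 h, 37.5, 36.1 and 39.2 at 24 h, and 36.2, 31.2 and 31.5 at 48 h. With TGFβ, TM7SF2 stood at 5.10, 4.58 and 5.29 TPM at 0 h, 6.29, 6.10 and 5.58 at 8 h, 17.3, 14.2 and 16.6 at 24 h, and 22.8, 22.4 and 22.1 at 48 h. The arms overlapped at 0 h and did not overlap later, with the treated libraries lower. Its level rose 7.58-fold to 24 h without and 3.21-fold with TGFβ, and the log2 difference at 24 h was -1.25 ± 0.11 (adjusted p = 4.8e-09, limma voom). At 8 h the difference of -0.56 ± 0.14 had an adjusted p of 0.0042, which became 0.013 to 0.034 without untreated replicate 3 or any 1 of the TGFβ replicates of 8 h. The start of TM7SF2 overlaps the end of VPS51 on the same strand.

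MSMO1, the sterol methyl oxidase, rose steeply in both arms. In untreated cells MSMO1 stood at 48.3, 60.8 and 57.8 TPM at 0 h, 107, 108 and 116 at 8 h, 267, 303 and 262 at 24 h, and 179.8, 177 and 189 at 48 h. With TGFβ, MSMO1 stood at 49.5, 65.1 and 53.7 TPM at 0 h, 98.7, 96.5 and 106 at 8 h, 196, 245 and 209 at 24 h, and 167, 163 and 172 at 48 h. The treated libraries lay below the untreated ones at 8, 24 and 48 h, by margins that were small at 8 and 48 h. At 24 h the log2 difference was -0.33 ± 0.08 (adjusted p = 0.0016, limma voom), and this call was lost without untreated 24 h replicate 2 or TGFβ 24 h replicate 1, with an adjusted p of 0.013 and 0.015. DHCR7 carries out the last reduction to cholesterol. In untreated cells DHCR7 stood at 118, 114 and 131 TPM at 0 h, 217, 224 and 233 at 8 h, 575, 508 and 542 at 24 h, and 386, 372 and 387 at 48 h. With TGFβ, DHCR7 stood at 109.9, 106 and 126 TPM at 0 h, 211, 219 and 222 at 8 h, 466, 423 and 448 at 24 h, and 389, 401 and 384 at 48 h. The arms were apart at 24 h and overlapped at the other times. The log2 difference at 24 h was -0.32 ± 0.08 (adjusted p = 0.0031, limma voom), and it was lost without untreated 24 h replicate 1 or 3 or TGFβ 24 h replicate 2, with an adjusted p of 0.015 to 0.027.

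EBP, the sterol isomerase, had no call before 8 h, rose from 8 to 24 h in both arms and then fell. In untreated cells EBP stood at 91.4, 88.0 and 91.0 TPM at 0 h, 91.4, 92.3 and 91.8 at 8 h, 150.4, 140.4 and 138 at 24 h, and 86.1, 77.4 and 82.4 at 48 h. With TGFβ, EBP stood at 91.0, 82.5 and 86.2 TPM at 0 h, 92.4, 89.6 and 87.3 at 8 h, 127, 118 and 126 at 24 h, and 80.0, 81.4 and 85.9 at 48 h. The arms were apart at 24 h, where all treated libraries were lower, and overlapped otherwise. That difference was -0.16 ± 0.06 on the log2 scale and did not pass (adjusted p = 0.035, limma voom). CYP51A1, the lanosterol demethylase, ranged over group means of 31.2 to 92.9 TPM without and 32.1 to 89.2 TPM with TGFβ, and its arms overlapped at every time. The log2 difference of CYP51A1 at 24 h was -0.05 ± 0.07 with an adjusted p of 0.64, and an antisense RNA, CYP51A1-AS1, overlaps this gene. NSDHL, a sterol dehydrogenase, ranged over 57.4 to 112 and 55.8 to 95.1 TPM and was lower at 24 h by a small log2 difference of -0.21 ± 0.04 (adjusted p = 0.00013). HSD17B7, a keto-sterol reductase with a pseudogene copy, ranged over 23.2 to 54.0 and 21.3 to 49.0 TPM. It was lower with TGFβ at 8 h (-0.21, adjusted p = 0.0044) and higher at 48 h (0.19, adjusted p = 0.0047), and each call was lost on leaving out any of 4 libraries of that time, with an adjusted p of at most 0.024 and 0.037. With length-scaled counts both were lost as well (0.029 and 0.011), and at 48 h also on log2 TPM (0.026 and 0.027) and with library totals (0.1). SC5D, a sterol desaturase, ranged over 15.5 to 27.9 and 15.3 to 24.9 TPM with no call between the arms.

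Of the 4 regulators and transport genes, INSIG1 was lower with TGFβ at 8 and 24 h and higher at 48 h, SREBF1 was lower at 24 h and 48 h, and SREBF2 and STARD4 had no call between the arms in the fit of all 24 libraries. INSIG1 retains the SCAP and SREBP complex in the endoplasmic reticulum and is itself a target of SREBP. In untreated cells INSIG1 stood at 151, 159 and 147 TPM at 0 h, 199, 203 and 202 at 8 h, 398, 409 and 370.4 at 24 h, and 171, 161 and 172 at 48 h. With TGFβ, INSIG1 stood at 139, 151 and 138 TPM at 0 h, 148, 152 and 163 at 8 h, 244, 262 and 245 at 24 h, and 185, 190.1 and 204 at 48 h. The treated libraries were lower than the untreated ones at 8 and 24 h and higher at 48 h, with no overlap at these times. For INSIG1 the log2 differences at 8, 24 and 48 h were -0.33 ± 0.06, -0.59 ± 0.05 and 0.22 ± 0.06 (adjusted p = 9.5e-05, 1.1e-08 and 0.0029, limma voom). The call at 48 h was lost with library totals in place of TMM factors (adjusted p = 0.064), and without untreated 48 h replicate 1 or 2 or TGFβ 48 h replicate 3 (0.011 to 0.022). From 24 to 48 h INSIG1 fell by 1.28 on the log2 scale in untreated cells and by 0.46 with TGFβ, and the difference of these changes was 0.81 ± 0.08 (adjusted p = 2.5e-07).

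SREBF1 encodes the SREBP that mainly drives fatty acid genes. In untreated cells SREBF1 stood at 59.4, 46.7 and 57.4 TPM at 0 h, 86.1, 80.4 and 71.8 at 8 h, 122, 109 and 126 at 24 h, and 105, 97.7 and 92.2 at 48 h. With TGFβ, SREBF1 stood at 58.3, 45.3 and 57.8 TPM at 0 h, 66.1, 67.5 and 63.9 at 8 h, 77.3, 62.6 and 74.99 at 24 h, and 74.7, 71.7 and 68.7 at 48 h. The untreated libraries rose to 24 h, whereas the treated ones had no call after 8 h, and the arms did not overlap from 8 h on. The call of the treated arm from 0 to 8 h was lost on leaving out any of 13 single libraries and in 5 other settings. SREBF1 differed by -0.75 ± 0.12 on the log2 scale at 24 h and -0.52 ± 0.12 at 48 h (adjusted p = 4.2e-05 and 0.0016, limma voom), the latter becoming 0.011 without untreated 48 h replicate 1. At 8 h it was -0.21 ± 0.12 with an adjusted p of 0.26, which was 0.00038 without the replicate 2 libraries of 0 and 24 h.

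Transcripts of SREBF1 were also estimated separately, without a test. SREBF1-201, the canonical coding transcript, made up 30.7 to 40.9% of the gene's TPM over the 8 group means. SREBF1-202, another coding transcript, made up 11.2% ± 0.918 of it in untreated cells at 24 h against 4.66% ± 1.87 with TGFβ (mean ± SD, n = 3), and 3.61 to 6.93% in the other groups. Sharing of reads between transcripts this alike leaves such splits uncertain.

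SREBF2 encodes the SREBP that mainly drives cholesterol genes. In untreated cells SREBF2 stood at 24.7, 23.4 and 25.9 TPM at 0 h, 43.0, 43.1 and 41.2 at 8 h, 73.3, 64.7 and 73.2 at 24 h, and 72.4, 68.7 and 69.4 at 48 h. With TGFβ, SREBF2 stood at 22.4, 21.7 and 23.1 TPM at 0 h, 39.6, 40.3 and 39.9 at 8 h, 61.6, 61.6 and 62.1 at 24 h, and 62.2, 63.8 and 59.7 at 48 h. SREBF2 had no call from 24 to 48 h in either arm, and all treated libraries lay below all untreated ones at each time, 0 h included. The log2 difference was -0.22 ± 0.07 at 24 h and -0.17 ± 0.07 at 48 h and did not pass (adjusted p = 0.013 and 0.054, limma voom), and both passed without the replicate 2 libraries of 0 and 24 h (2.6e-05 and 2.2e-05). An antisense RNA, SREBF2-AS1, overlaps this gene and the strand setting of the kit was not given in the sources used here. STARD4, which carries sterols between membranes, ranged over group means of 26.7 to 56.7 TPM without and 24.0 to 49.8 TPM with TGFβ, and its log2 difference at 24 h was -0.18 ± 0.09 (adjusted p = 0.13, limma voom), which passed without the same 4 libraries (0.001).

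Fatty acid and glycerolipid genes had the most calls of the 4 groups at 24 h, when 8 of 9 were lower with TGFβ, all but ACLY, with a median log2 difference of -0.46. At 8 h 4 of the 9 were lower and 1 was higher, and at 48 h 2 were lower and 1 higher. Of all genes 13.8% were lower at 24 h. Called shares of the group were 55.6% at 8 h and 33.3% at 48 h, against 16.4 and 32.6% of all genes. The 48 h count was thus near the share of all genes. ELOVL6, which elongates palmitate to stearate, fell with TGFβ from 0 to 8 h and from 24 to 48 h. In untreated cells ELOVL6 stood at 57.3, 59.7 and 56.3 TPM at 0 h, 59.6, 58.8 and 59.5 at 8 h, 62.4, 66.3 and 63.8 at 24 h, and 65.5, 72.5 and 72.5 at 48 h. With TGFβ, ELOVL6 stood at 54.6, 55.7 and 54.3 TPM at 0 h, 42.5, 38.5 and 43.5 at 8 h, 32.6, 37.3 and 35.1 at 24 h, and 21.5, 22.2 and 21.7 at 48 h. In TPM the untreated libraries were highest at 48 h and the treated ones stood lower at each later time, and the treated libraries were already marginally lower in TPM at 0 h. For ELOVL6 the log2 differences at 0, 8, 24 and 48 h were 0.05 ± 0.06, -0.68 ± 0.06, -0.90 ± 0.06 and -1.73 ± 0.07 (adjusted p = 1, 4.3e-08, 2.7e-10 and 5.7e-15, limma voom). At 48 h the TPM level with TGFβ was 0.31 times that without, and the change from 24 to 48 h differed between the arms by -0.83 ± 0.09 (adjusted p = 2.1e-06).

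ACLY, which splits citrate to acetyl-CoA and so feeds both pathways, was the one listed gene higher with TGFβ at 8 h. In untreated cells ACLY stood at 156, 145 and 154 TPM at 0 h, 189, 191 and 188 at 8 h, 259, 244 and 251 at 24 h, and 194, 185 and 192 at 48 h. With TGFβ, ACLY stood at 142, 149.9 and 158 TPM at 0 h, 244, 244 and 243 at 8 h, 240.4, 232 and 244 at 24 h, and 197, 197 and 199 at 48 h. The treated libraries reached their highest level at 8 h, above all untreated ones, the arms met at 24 h, and at 48 h the treated libraries were slightly above. For ACLY the log2 differences at 8, 24 and 48 h were 0.42 ± 0.03, -0.03 ± 0.03 and 0.07 ± 0.03 (adjusted p = 3.2e-09, 0.46 and 0.13, limma voom). ACSS2 makes acetyl-CoA from acetate. In untreated cells ACSS2 stood at 24.9, 23.0 and 23.8 TPM at 0 h, 32.2, 32.6 and 35.3 at 8 h, 80.1, 73.9 and 74.2 at 24 h, and 64.3, 59.9 and 60.2 at 48 h. With TGFβ, ACSS2 stood at 21.5, 20.6 and 21.1 TPM at 0 h, 28.1, 30.01 and 29.3 at 8 h, 50.4, 44.9 and 48.2 at 24 h, and 49.99, 46.6 and 53.1 at 48 h. All treated libraries lay below all untreated ones at each time, by a small margin at 0 h and most at 24 h. ACSS2 differed by -0.67 ± 0.05 on the log2 scale at 24 h and -0.36 ± 0.05 at 48 h (adjusted p = 3.4e-10 and 3.2e-06, limma voom).

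FASN, which builds palmitate, varied widely between replicates. In untreated cells FASN stood at 122, 92.8 and 106 TPM at 0 h, 211, 209 and 205 at 8 h, 391.98, 312 and 387 at 24 h, and 281, 233 and 241 at 48 h. With TGFβ, FASN stood at 119.9, 79.4 and 118 TPM at 0 h, 210.2, 209 and 196 at 8 h, 272, 180.0 and 273 at 24 h, and 234, 235 and 210.4 at 48 h. The replicate 2 libraries were the lowest of their groups at 0 and 24 h in both arms. At 24 h the arms did not overlap, and the log2 difference of -0.57 ± 0.16 passed (adjusted p = 0.006, limma voom), but not without untreated 24 h replicate 1 or 3 or TGFβ 24 h replicate 2 (0.03 to 0.053). ACACA, acetyl-CoA carboxylase, ranged over group means of 35.8 to 68.1 TPM without and 34.2 to 52.1 TPM with TGFβ, and its log2 difference at 24 h was -0.32 ± 0.05 (adjusted p = 1.9e-05).

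SCD, which desaturates stearate to oleate, reached the highest level of any listed gene. In untreated cells SCD stood at 135, 147 and 146 TPM at 0 h, 391, 396 and 407 at 8 h, 946, 1040.3 and 957 at 24 h, and 608, 568 and 621 at 48 h. With TGFβ, SCD stood at 123, 151 and 141 TPM at 0 h, 355, 369 and 397 at 8 h, 609, 755 and 690.2 at 24 h, and 577, 597 and 619.7 at 48 h. The arms overlapped at 0, 8 and 48 h and were well apart at 24 h. Its level rose 6.87-fold to 24 h without and 4.96-fold with TGFβ, and the log2 difference at 24 h was -0.49 ± 0.06 (adjusted p = 6e-07, limma voom). At 48 h it was 0.02 ± 0.06 (adjusted p = 0.87).

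FADS1 and FADS2 insert double bonds into polyunsaturated fatty acids, and FADS1 lies inside FADS2 on the opposite strand, so that their reads may be exchanged where strand was not used. In untreated cells FADS1 stood at 46.5, 44.9 and 42.9 TPM at 0 h, 92.2, 94.2 and 96.6 at 8 h, 153, 155 and 144 at 24 h, and 103, 95.2 and 98.4 at 48 h. With TGFβ, FADS1 stood at 37.4, 46.2 and 47.0 TPM at 0 h, 74.9, 77.6 and 85.8 at 8 h, 118, 129 and 117 at 24 h, and 103, 96.4 and 106 at 48 h. The treated libraries were lower at 8 and 24 h and overlapped the untreated ones at 0 and 48 h. The log2 difference of FADS1 was -0.33 ± 0.05 at 8 h and -0.34 ± 0.05 at 24 h (adjusted p = 2.1e-05 and 6.8e-06, limma voom). At 8 h the call was lost with length-scaled counts (-0.19, adjusted p = 0.022) and on log2 TPM (-0.25, adjusted p = 0.016).

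In untreated cells FADS2 stood at 54.7, 48.5 and 52.2 TPM at 0 h, 152, 163 and 153 at 8 h, 370.4, 347 and 363 at 24 h, and 235, 214 and 231 at 48 h. With TGFβ, FADS2 stood at 50.01, 47.3 and 50.4 TPM at 0 h, 124, 127 and 126 at 8 h, 273, 257 and 287 at 24 h, and 271, 274 and 275 at 48 h. Untreated libraries peaked at 24 h and fell, whereas treated ones had no call after 24 h, and the arms did not overlap from 8 h on, with the order reversed at 48 h. For FADS2 the log2 differences at 8, 24 and 48 h were -0.27 ± 0.07, -0.35 ± 0.06 and 0.30 ± 0.06 (adjusted p = 0.0038, 8.6e-05 and 0.00063, limma voom), of which the first was lost on leaving out any of the 6 libraries of 8 h (0.011 to 0.019). LPIN1, a phosphatidate phosphatase that makes diacylglycerol, ranged over group means of 21.2 to 60.3 TPM without and 18.3 to 38.7 TPM with TGFβ. It was lower by a log2 difference of -0.28 ± 0.05 at 8 h and -0.46 ± 0.05 at 24 h (adjusted p = 0.00013 and 6.7e-08, limma voom).

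Genes around the 2 pathways were taken from lists by function, to be read against the 16.1% of all genes higher and 16.4% lower with TGFβ at 48 h. Among 9 genes of SREBP processing, 0 were higher and 4 lower with TGFβ at 48 h, with a median log2 difference of -0.29. INSIG2, the second INSIG retention protein, differed by -0.59 ± 0.07, and RNF145, a sterol-responsive ubiquitin ligase, by -0.54 ± 0.07 (adjusted p = 5.7e-07 and 2e-06, limma voom). At 24 h 3 of the 9 were lower (13.8% of all genes) and at 8 h 1 was higher (9.12%). Among 7 genes of the liver X receptor and sterol efflux, 4 were lower with TGFβ at 48 h and 0 higher, led by MYLIP, a ubiquitin ligase that removes lipoprotein receptors, at -1.06 ± 0.09, and NR1H3, a liver X receptor, at -0.77 ± 0.08 (adjusted p = 3.6e-09 and 9.1e-08). From 24 to 48 h 2 of the 7 rose and 1 fell in each arm (14.7% and 13.6% of all genes without TGFβ, 12.4% and 13.4% with it), with medians of -0.04 and -0.09. The efflux pumps ABCG1 and ABCA1 were those that rose, ABCG1 by 0.77 without and 0.82 with TGFβ and ABCA1 by 0.54 and 0.38 on the log2 scale.

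Of 13 genes of sterol uptake and trafficking, 3 were higher and 3 lower with TGFβ at 48 h (46.2% together, against 32.6% of all genes). VLDLR, a lipoprotein receptor, was higher by 1.51 ± 0.05 on the log2 scale (adjusted p = 2.8e-16, limma voom), and GRAMD1C, a sterol transfer protein, was lower by -1.01 ± 0.10 (adjusted p = 1.8e-08). Over 24 to 48 h 2 of the 13 rose and 4 fell without TGFβ (14.7% and 13.6% of all genes). With it 4 rose and 5 fell (12.4% and 13.4% of all genes). Of those that rose with TGFβ, GRAMD1A and GRAMD1C lost their calls on leaving out any of 3 and 5 single libraries. TMEM97, which binds the sterol transporter NPC1, was among those that fell in both arms, with log2 changes of -0.996 and -1.01.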

How the data were processed

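SK-MES1 cells were profiled by RNA sequencing of total RNA in 24 libraries, 3 for each arm and time point. The authors quantified transcripts with kallisto 0.43.0 against GRCh38 (tool and build per the submitters' processing notes), and deposited an estimated count and a TPM value per transcript and library. In their own work the authors summed these per gene and used limma voom. Here 155518 of 173259 transcripts (89.8%) were assigned to genes through GENCODE 44, which kept 94.82 to 95.18% of estimated counts, so a gene level may miss retired transcripts. For each gene the estimated counts of its transcripts were added up and then rounded, and so, without rounding, were the TPM values. Genes with at least 10 counts in at least 3 libraries were kept (17453). TMM factors (edgeR 4.0.16, 0.961 to 1.05) and limma voom (limma 3.58.1, R 4.3.3) were fitted over all 24 libraries with 8 group means, and adjusted p-values (Benjamini-Hochberg, over all genes tested) below 0.01 were called. SE is the moderated standard error of a log2 difference.

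Depth was 46613589 to 77964234 estimated counts per library (median 54120879), and the chi-square per gene between replicates ran from 3.17 to 60.5, where counting error alone would give about 1. Scripts were tested on simulated data. All 31 genes are named. TPM of every library is given for SREBF1, SREBF2, INSIG1 and genes among the 6 largest called differences of a comparison, and of the surrounding lists up to 3 genes per direction are named. The genes and lists were chosen with earlier results of these data known. Alternatives were edgeR, DESeq2 1.42.0, length-scaled counts, limma-trend on log2 TPM with a pseudocount of 1 or 0.1, other scalings, no filter, a replicate block, a threshold of 0.05, 1 time point alone and each library left out. Leaving out the 4 replicate 2 libraries of 0 and 24 h was added after seeing the data. Columns of other samples numbered 0.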

Additional observations from a re-analysis of the deposited data

Results flagged for a closer look

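Several listed genes changed over a time step by an amount that differed between the arms, as tested by the interaction term of limma voom, with values given as the log2 change in the TGFβ arm minus that in the untreated arm. From 0 to 8 h these were ACLY (0.40), ELOVL6 (-0.72) and FADS1 (-0.29).

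From 8 to 24 h all were lower with TGFβ, namely FDPS (-0.34), FDFT1 (-0.42), LSS (-0.55), NSDHL (-0.25), ACLY (-0.46), ACSS2 (-0.49) and SCD (-0.45). This step crosses the file-name codes in both arms.

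From 24 to 48 h the sterol genes FDPS (0.39), FDFT1 (0.61), LSS (0.55), TM7SF2 (0.62), NSDHL (0.25) and HSD17B7 (0.31), the regulator INSIG1 (0.81) and the fatty acid genes ACSS2 (0.30), SCD (0.51), FADS1 (0.35), FADS2 (0.65) and LPIN1 (0.30) had higher changes with TGFβ, and ELOVL6 had a lower one (-0.83). Leaving out single libraries ended the call of TM7SF2 in 8 cases, LSS in 7, HSD17B7 in 6, NSDHL and ACSS2 in 4 and LPIN1 in 3, and those of HSD17B7, LPIN1 and FADS1 did not pass on log2 TPM (adjusted p = 0.019 to 0.045). This step lies within 1 file-name code in each arm.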

How the results depend on the processing

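Counts of listed genes called moved by 1.5 times or more under these settings. The share of all genes called in the same fit stands in parentheses. At 8 h the count was 10 (16.4%) and became 16 (27.5%) with the 4 replicate 2 libraries of 0 and 24 h left out (chosen after seeing the data) and 16 (32%) with only the 6 libraries of that time. At 24 h it was 21 (29.3%) and became 13 (16.8%) with only the 6 libraries of that time. At 48 h it was 8 (32.6%) and became 13 (44.8%) without the 4 libraries and 12 (46.1%) with only the 6 libraries of that time. For the change from 0 to 8 h the count of 3 (7.88%) became 6 (9.9%) with DESeq2, 5 (8.26%) with library totals, 6 (12.2%) at an adjusted p below 0.05 and 6 (11.9%) without the 4 libraries. For the change from 8 to 24 h the count of 7 (6.69%) became 11 (11.6%) at 0.05 and 14 (11.4%) without the 4 libraries. The other counts without these 4, which moved less, were 28 (55.5%) for the F-test, 29, 29 and 30 (33.8, 42.5 and 37.7%) for the untreated steps, 28, 29 and 25 (40.4, 38.4 and 33.1%) for the TGFβ steps and 19 (15%) for the change from 24 to 48 h. The cause was not tested. Leaving out each library in turn gave 18 to 24 genes for the F-test and, at 0, 8, 24 and 48 h, 0 to 0, 6 to 12, 17 to 23 and 6 to 9 genes. For the 3 successive steps it gave 25 to 27, 28 to 29 and 24 to 27 in untreated cells, 23 to 28, 24 to 25 and 17 to 19 with TGFβ, and 2 to 4, 5 to 9 and 7 to 16 for the difference of the changes. Of all genes these fits called 6756 to 8127 in the F-test and 0 to 1, 2204 to 3246, 4278 to 5638 and 4830 to 6186 at 0, 8, 24 and 48 h. For the steps they called 3525 to 5100, 4787 to 6321 and 3971 to 5497 without TGFβ and 4914 to 6315, 3942 to 5665 and 3489 to 5029 with it. For the difference of the changes they called 1157 to 1511, 878 to 1432 and 1147 to 1921. Sign changes fell on 17 values that had not passed, of at most 0.07 in size on the log2 scale, and no listed gene that passed in a comparison changed sign there under any setting run. With library totals the log2 differences that turned were CYP51A1 -0.051, DHCR7 -0.054, EBP -0.025, FASN -0.082, NSDHL -0.046 and SQLE -0.058 at 8 h, and ACLY -0.015, FADS1 -0.071, FDFT1 -0.058, NSDHL -0.045, SCD -0.067 and STARD4 -0.073 at 48 h. On log2(TPM + 1), and to these digits also on log2(TPM + 0.1), they were CYP51A1 -0.015, DHCR7 -0.046, EBP -0.033, FASN -0.023, NSDHL -0.016 and SQLE -0.054 at 8 h, and SCD -0.002 and STARD4 -0.019 at 48 h. Length-scaled counts turned SQLE 0.0009 at 24 h, and no count filter turned FASN -0.0017 at 8 h. Over the settings that left out 1 library, the values that took either sign ran over FASN -0.013 to 0.017 and SCD -0.079 to 0.004 at 8 h, over CYP51A1 -0.11 to 0.0013 and SQLE -0.099 to 0.0011 at 24 h, over ACAT2 -0.047 to 0.014, FADS1 -0.013 to 0.029, HMGCS1 -0.072 to 0.011, SCD -0.018 to 0.046 and STARD4 -0.012 to 0.025 at 48 h. Library totals shifted the median of all genes to -0.10 at 8 h, -0.11 at 24 h and -0.10 at 48 h.

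With the replicate number as a block, 24 genes were called in the F-test (46.4% of all genes in that fit). At 0, 8, 24 and 48 h 0, 12, 23 and 8 were called (0, 18.3, 32.4 and 35.7% of all genes). The untreated steps gave 28, 29 and 26 (29.2, 36.3 and 31.7%), and the TGFβ steps 28, 25 and 19 (36.7, 32.3 and 29.2%). For the difference of the changes the counts were 4, 8 and 17 (9.16, 8.14 and 11.1%). Of 12 pairs of libraries with the same number, 4 correlated above 0.1 (-0.047 to 0.301 over all), and 11 of 24 libraries correlated best with their own number. These 4 were replicates 1 and 2 at 0 h (0.203 and 0.296) and at 24 h (0.144 and 0.301). The replicate numbers were thus not shown to pair libraries at 8 and 48 h. A shift shared by the arms at 0 and 24 h was not modelled in the fit without the block.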

Other observations

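Neighbouring lipid pathways were also read at 48 h, when 16.4% of all genes were lower and 16.1% higher with TGFβ (32.6% together). Of 10 fatty acid oxidation genes, 4 were lower with TGFβ and 0 higher (40% together), with PPARGC1A, a coactivator of oxidative metabolism, at -2.52 ± 0.11, CPT1A, which brings fatty acids into mitochondria, at -0.76 ± 0.05 and CPT2 at -0.46 ± 0.04 on the log2 scale (adjusted p = 4e-14, 9.3e-12 and 3.4e-09, limma voom). Of 12 genes of glycerolipid synthesis, 4 were lower and 1 higher (41.7% together). GPAT3, which starts glycerolipid synthesis, differed by -1.05 ± 0.06, DGAT2, which completes triglyceride, by -0.97 ± 0.07, and AGPAT4 was higher by 0.85 ± 0.05.

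Of 19 other genes of fatty acid synthesis and activation, 15.8% passed, below the share of all genes. There 2 were lower, ACSL5 (-0.85 ± 0.14) and ME1 (-0.42 ± 0.08), and 1 was higher, SCD5 (0.16 ± 0.04), whose call was lost with library totals (adjusted p = 0.16) and on log2 TPM (0.033 and 0.035). Of 9 genes of the isoprenoid branches that leave the mevalonate pathway, 1 was lower and 0 were higher (11.1%). COQ2, an enzyme of ubiquinone synthesis, was the one lower, by -0.25 ± 0.05. From 24 to 48 h 2 of 9 fell without and 4 of 9 with TGFβ, against 13.6% and 13.4% of all genes. COQ2 was among them in both arms, by log2 changes of -0.55 without and -0.58 with TGFβ. With TGFβ the calls of FNTB, PDSS1 and PDSS2 were lost on leaving out any of 19, 18 and 4 single libraries. Without TGFβ that of FNTB was lost on leaving out any of 5.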
